A study of Homo sapiens with 16 samples.

Results

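The comparison described here is the effect of an siRNA against OCT4 on the translation ratio of H9 cells, a human embryonic stem cell line, averaged over 20% and 1% oxygen. It used all 8 columns of the deposited ratio table. Each column joins 1 library of total RNA with 1 library made from ribosome-nascent chain complexes (RNC), so the 8 columns stand for all 16 libraries of the series. Such a pair is called a culture here. On the siOCT4 side were 4 cultures, 2 kept at 20% oxygen and 2 at 1% oxygen. On the control side were 4 cultures that received the control siRNA, labelled NC, again 2 at each oxygen level. All were grown without feeder cells in mTeSR1 medium. Nothing in the labels tells if the replicates come from separate dishes, so p-values measure only the spread between these samples. A gene entered the comparison where it had a ratio in all 8 cultures, which was so for 15864 of the 28252 genes in the table.

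OCT4, encoded by POU5F1, is a homeodomain transcription factor that works with SOX2 and NANOG to keep embryonic stem cells in the pluripotent state, and cells that lose it leave that state. RNC sequencing isolates mRNAs that carry ribosomes with a growing peptide. The translation ratio of a gene is its level in that fraction over its level in total RNA, and it is read as the share of the gene's mRNA that is being translated. Much of its control acts at the start of translation, through the cap-binding complex, the sequence at the 5′ end of the mRNA and signals such as mTOR and the integrated stress response. Whether the RNC level or the RNA level moved a ratio cannot be told apart here. In bulk samples, fewer cells of a type and less RNA per cell cannot be told apart either.

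The effect at each oxygen level was the mean log2 ratio of the siOCT4 cultures minus that of the control cultures, and the averaged effect is the mean of the 2 differences. It is given in log2 units with its standard error (SE). A gene was called where limma's p, adjusted over all genes tested, was under 0.05. The effects at 20% and at 1% oxygen share no culture.

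Averaging left a small part of the difference between siOCT4 and control cultures at each oxygen level. The standard deviation of the effect over genes was 1.2 at 20% oxygen and 1.35 at 1% oxygen, and 0.459 for the average. The median over genes was -0.09 at 20% and 0.42 at 1% oxygen. Of the 15864 genes, 5436 were higher with siOCT4 at 20% oxygen and lower at 1%, and 7466 were lower at 20% and higher at 1%. Another 2109 were higher at both levels and 853 were lower at both, so 18.7% of genes kept 1 direction. The effects at the 2 oxygen levels had a Pearson correlation of -0.747 across genes, which are not independent replicates.

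**Figure D1:**
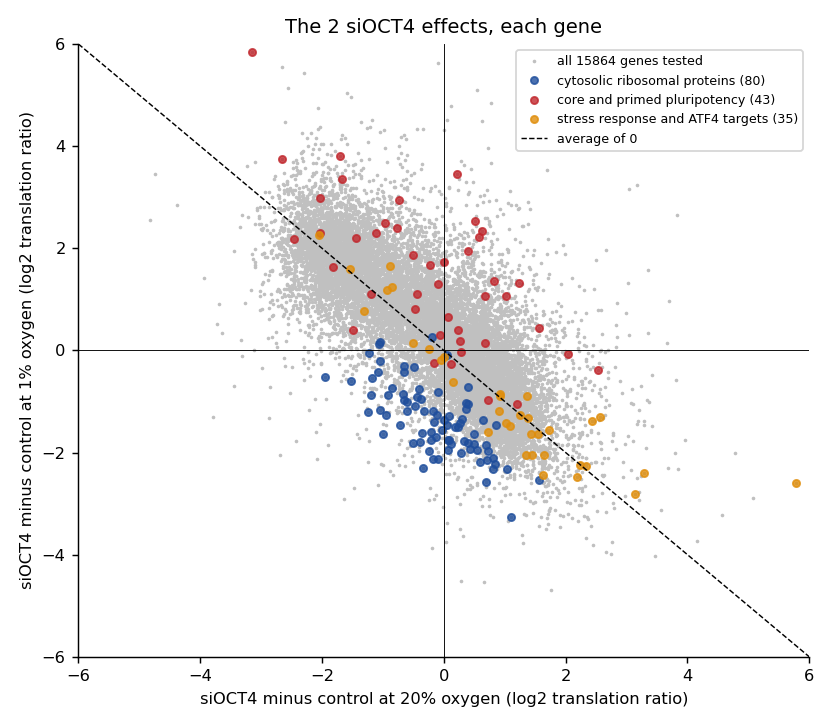
Each point is a gene, with the siOCT4 minus control difference in log2 translation ratio at 20% oxygen on the x axis and at 1% oxygen on the y axis, and the dashed line marks an average of 0. Most of the 15864 genes lie along that line in the upper left and lower right, while most of the 80 ribosomal protein genes lie below it and most of the 43 pluripotency genes above it.

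The averaged effect was called for 965 genes, 6.08% of those tested. With siOCT4 the ratio was higher for 716 genes (4.51%) and lower for 249 (1.57%). Of the called genes, 388 had the same sign at both oxygen levels, 281 of them higher (1.77% of all genes tested) and 107 lower (0.674%). The other 577 called genes moved in opposite directions at the 2 levels, and for these the average is the remainder of 2 unequal effects. In all genes tested, both siOCT4 cultures lay above both control cultures at each oxygen level for 848 (5.35%), and below for 258 (1.63%). A stricter separation, with all 4 siOCT4 cultures beyond all 4 control cultures whatever the oxygen level, was met by 304 genes on the higher side (1.92%) and 71 on the lower side (0.448%).

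The split into higher and lower calls depended on how the cultures were scaled. Higher genes were 74.2% of calls in the ratios as deposited. Centring each culture on its median, which moved the median averaged effect of all genes from 0.07 to -0.09, gave 278 higher and 427 lower, so that 39.4% of calls were higher. Quantile normalization gave 478 higher and 317 lower (60.1% higher). Of the 965 genes called as deposited, 527 were also called after median centring and 316 after quantile normalization. The medians of gene lists given below are to be read against the median of all genes, 0.07 as deposited, -0.03 GC corrected and -0.04 with GC and length corrected (both corrections are described below). The counts of called members are to be read against 4.51% of all genes higher and 1.57% lower as deposited. These shares were 8.32% and 7.94% GC corrected, and 4.73% and 5.29% with GC and length corrected.

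No call as deposited held in every fit that left out 1 of the 8 cultures: 7 of these fits called 0 genes, with 1925 to 2776 genes higher and 871 to 1663 lower at an unadjusted p under 0.05. The fit without control replicate 2 at 20% oxygen called 666 higher and 288 lower. A recurrent ratio, a value that at least 3 genes of a culture share, as ratios of small read numbers can, was found in 49.0% of genes, and with the 8087 other genes alone 1286 were called higher and 595 lower. In that set every one of the 8 fits made calls, and 453 higher and 175 lower genes were called in all 8. The sign of all 965 called genes was the same in all 8 fits, but these genes were picked by the same data, so this is no separate support.

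The slope of the ratio on base composition, steep in some cultures, nearly cancelled in the average, while calls still differed by GC content. That each side holds a steep and a flat group was known when the comparison was chosen, so the slopes are given as a description with no test. The slope of the log2 ratio per 10% of transcript GC content was -1.50 and -1.13 in the control cultures at 20% oxygen, and 0.01 and -0.28 in those at 1%. In siOCT4 cells it was -0.20 and -0.16 at 20% oxygen and -1.21 and -1.24 at 1%. Each side thus held a pair of cultures with a steep slope and a pair with a flat one. The mean slope was -0.70 in siOCT4 and -0.72 in control cultures, a difference of 0.02. This difference was the average of 1.14 at 20% and -1.09 at 1% oxygen, with a standard deviation of 0.17 within groups. The median GC content was 42.5% in genes called lower and 48.5% in genes called higher, against 49.8% for all genes tested. With 1 sign at both levels these were 44.7% and 53.9%. Of genes with up to 38% GC, 4.29% were called lower, and of those over 62%, 0.06%. Called higher were 4.29% and 1.31% of these genes, and 7.6% of those over 50% and up to 54%.

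Replacing each log2 ratio by its residual from the culture's own GC trend, called GC corrected below, narrowed the spread within each oxygen level more than that of the average. The standard deviation over genes became 0.655 at 20% and 0.948 at 1% oxygen, and 0.449 for the average. GC corrected, 1269 genes were called higher (8.32% of 15261 with a known GC content) and 1212 lower (7.94%), 16.3% in all. Of the 943 genes called as deposited that have a GC content, 888 were called in the same direction and 0 in the opposite one. The share of genes with the same sign at both oxygen levels rose from 18.7% to 33.9%, and the share whose effects differed between the levels by limma's interaction test was 68.7% as deposited and 43.4% GC corrected.

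How a gene's average divides between the oxygen levels depended on this correction. Of the 45 named genes called as deposited, 44 were also called GC corrected, FGF8 being the exception. As deposited, 37 of the 45 had the same sign at both levels, and of these 23 were called at 20% oxygen and 34 at 1%. GC corrected, 23 of the 37 kept 1 sign and all 37 were called at 1% oxygen. At 20%, 8 were called in the direction of their average (PRR11, RPL7, RPL31, RPS27, ZFAS1, RPS24, RPL21 and GAS5). CKS1B was called there in the opposite direction (0.64, adjusted p = 0.0309). Effects at single oxygen levels below are as deposited unless GC corrected is written.

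Transcript length was a trend that the average kept. Among protein-coding genes the median averaged effect was -0.41 for mRNAs of up to 500 bases, -0.33 from there to 1000 bases, 0.01 between 2000 and 3000 bases and 0.36 above 10000 bases. The median transcript of genes called lower had 1480 bases and that of genes called higher 4957, against 3022 for all genes tested. The slope of the log2 ratio per doubling of length was 0.22 in siOCT4 and 0.07 in control cultures, a difference of 0.15 made of -0.31 at 20% and 0.61 at 1% oxygen (exact permutation test within oxygen levels, two-sided, n = 4 cultures a side, p = 0.444, where the smallest possible is 0.0556). With residuals from trends on both GC content and length, 722 genes were called higher (4.73%) and 808 lower (5.29%). What part length had in the results below was not tested. Counts with that correction stand beside most lists.

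**Figure D2:**
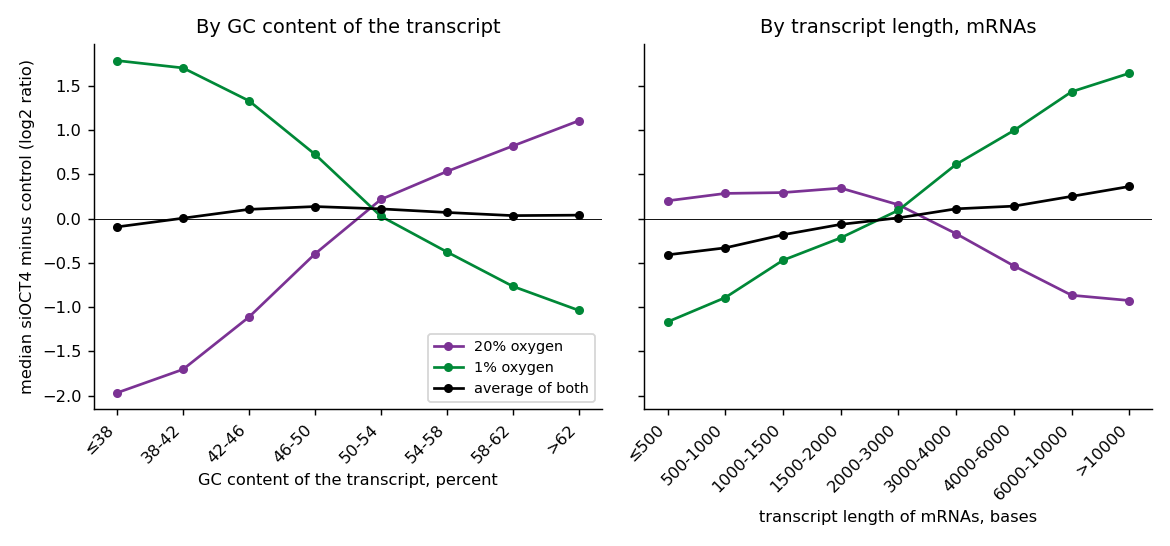
Median siOCT4 minus control difference in log2 ratio for genes binned by transcript GC content in percent (left) and, for mRNAs, by transcript length in bases (right), at 20% oxygen, at 1% oxygen and for the average. By GC content the 2 oxygen levels cross and the average stays between -0.09 and 0.14, whereas by length the average climbs from -0.41 to 0.36.

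POU5F1, the target of the siRNA, had no call in the average. Its ratio in control cultures was 0.758 and 0.981 at 20% oxygen and 1.13 and 0.810 at 1%. With siOCT4 it was 1.41 and 1.42 at 20% oxygen and 0.453 and 0.532 at 1%. The siOCT4 cultures were thus above the controls at 20% and below them at 1%. The averaged effect was -0.12 ± 0.16 (SE, n = 4 cultures a side), adjusted p = 0.676. GC corrected, the effects were 0.04 at 20% (adjusted p = 0.858) and -0.47 at 1% oxygen. These are ratios, not RNA levels, so they do not show how far the siRNA lowered OCT4 mRNA.

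Cytosolic ribosomal proteins, which with the ribosomal RNAs build the ribosomes of the cytoplasm, had the lowest median of the 26 gene lists. Of 80 measured members, 41 were lower with siOCT4 and 0 higher, where 1.57% of all genes were lower. The median averaged effect was -0.74, against 0.07 for all genes, and 79 of 80 members were below 0. Most of the fall was at 1% oxygen, with a median of -1.41 there, against 0.42 for all genes. At 20% the median was -0.12, against -0.09 for all genes. There 21 members were called lower and 8 higher, where 34.1% and 19.2% of all genes were. At both levels 41 members were lower, as were 853 of all 15864 genes. In the averaged effect, the exceptions near 0 were RPL4 (-0.02), a large subunit protein, and RPS26 (0.04), a small subunit protein.

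Most mRNAs of ribosomal proteins carry a 5′ terminal oligopyrimidine (TOP) motif, a C at the cap followed by an unbroken stretch of C and T, through which mTOR signalling controls their translation. The starts of 5 called genes of this list, and of a pair of called host genes of small nucleolar RNAs described below, are shown to let this motif be seen. Each line gives 15 bases before and 15 from the annotated start (RefSeq, GRCh38.p14, gene strand), and capitals mark a pyrimidine run of at least 5 bases that opens with C within 5 bases of that start. RPS27 lies at chr1:153990747-153990776 (plus strand), RPS24 at chr10:78033848-78033877 (plus), RPL31 at chr2:101002274-101002303 (plus), RPS3A at chr4:151099613-151099642 (plus), RPL21 at chr13:27251543-27251572 (plus), ZFAS1 at chr20:49278627-49278656 (plus) and SNHG5 at chr6:85678719-85678748 (minus).
RPS27: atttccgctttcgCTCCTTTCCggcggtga
RPS24: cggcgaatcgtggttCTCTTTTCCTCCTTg
RPL31: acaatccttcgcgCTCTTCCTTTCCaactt
RPS3A: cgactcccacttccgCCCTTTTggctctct
RPL21: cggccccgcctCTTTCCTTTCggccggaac
ZFAS1: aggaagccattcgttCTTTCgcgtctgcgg
SNHG5: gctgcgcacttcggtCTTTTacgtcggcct

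Such a run was present near the start of 47 of the 54 ribosomal protein genes with exactly 1 promoter window in the RefSeq table (87.0%), and of 1933 of 8573 tested genes (22.5%). Among ribosomal protein genes called lower it was present in 27 of 29 (93.1%), among other genes called lower in 35 of 123 (28.5%) and among genes called higher in 79 of 381 (20.7%). A match is a description of the letters in this window and not a mapped cap site.

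RPS27A encodes a small subunit protein fused to ubiquitin. Its ratio in control cultures was 2.12 and 2.08 at 20% oxygen and 1.22 and 1.12 at 1%, and in siOCT4 cultures 1.03 and 1.06 at 20% and 0.368 and 0.383 at 1%. All 4 siOCT4 cultures lay below all 4 controls. The averaged effect was -1.32 ± 0.09, 2.50-fold lower (adjusted p = 0.0298), from -1.0 at 20% and -1.64 at 1% oxygen. GC corrected, the effect was -0.04 at 20% (adjusted p = 0.885) and -2.86 at 1%.

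RPS3A and RPS27, both of the small subunit, fell at both oxygen levels. For RPS3A the control ratios were 1.59 and 1.20 at 20% oxygen and 0.785 and 0.858 at 1%, and the siOCT4 ratios 0.653 and 0.688, then 0.341 and 0.386. For RPS27 they were 1.04 and 1.05, then 0.911 and 0.802, in control cultures and 0.551 and 0.535, then 0.350 and 0.358, in siOCT4 cultures. For both genes the siOCT4 and control cultures did not overlap. The averaged effects were -1.11 ± 0.14 for RPS3A (2.16-fold lower, adjusted p = 0.0298; -1.05 and -1.18 at 20% and 1%) and -1.11 ± 0.11 for RPS27 (2.16-fold lower, adjusted p = 0.0298; -0.94 and -1.27). GC corrected, RPS3A was -0.01 at 20% (adjusted p = 0.976) and -2.45 at 1% oxygen, and RPS27 -0.68 and -1.85.

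In the large subunit, RPL31 and RPL21 also fell at both levels. RPL31 had ratios of 1.42 and 1.29 at 20% and 1.43 and 1.18 at 1% oxygen in control cultures, and of 0.944 and 0.963, then 0.377 and 0.356, with siOCT4. The cultures did not overlap, and the averaged effect was -1.17 ± 0.11 (2.24-fold lower, adjusted p = 0.0298). RPL21 had 1.82 and 1.95, then 0.835 and 0.805, in control cultures and 0.787 and 0.860, then 0.428 and 0.468, with siOCT4. Its 20% siOCT4 values overlapped the 1% controls. At each oxygen level the groups were apart, as the naming rule required. The averaged effect was -1.03 ± 0.10 (2.05-fold lower, adjusted p = 0.0298).

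As deposited, RPL7 and RPS24 had their larger effects at 20% oxygen, and GC corrected at 1%. The control ratios of RPL7 at 20% oxygen were 4.81 and 4.23 and fell to 1.15 and 1.17 with siOCT4, an effect of -1.96, while at 1% oxygen 1.19 and 1.12 became 0.767 and 0.849 (-0.51). RPS24 went from 2.75 and 3.86 to 1.14 and 1.14 at 20% (-1.52) and from 1.28 and 1.07 to 0.744 and 0.795 at 1% (-0.60). GC corrected, the effects were -0.76 and -1.90 for RPL7 and -1.08 and -1.36 for RPS24. RPL39, with transcripts of 401 bases, had effects of -0.33 at 20% and -2.30 at 1%. GC corrected, the effects of RPL39 were 0.74 at 20% (adjusted p = 0.164) and -3.60 at 1%. Their averages were -1.23 ± 0.10 for RPL7, -1.06 ± 0.14 for RPS24 and -1.32 ± 0.17 for RPL39, with adjusted p = 0.0298, 0.0302 and 0.0298. RPS13 had an average of -1.09 ± 0.16 (adjusted p = 0.0305), and its siOCT4 cultures, 0.346 to 0.714, did not reach its controls, 0.901 to 1.44.

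Some ribosomal protein genes were called on an average of opposite effects. RPLP1, an acidic protein of the ribosomal stalk, was 0.59 higher at 20% oxygen and 2.19 lower at 1% on the log2 scale (average -0.80 ± 0.16, adjusted p = 0.0473). RPL6 was 1.05 lower at 20% and 0.17 higher at 1% oxygen (average -0.44 ± 0.09, adjusted p = 0.0492), and GC corrected its effects were -0.59 and -0.61. Both were chosen after their values were seen. In all, 30 of the 41 called members had the same sign at both oxygen levels and 14 of the 80 had all 4 siOCT4 cultures below all 4 controls, where 0.448% of all genes tested did.

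GC corrected, 65 of the 80 were lower and 0 higher (median -0.86), where 7.94% of all genes were lower, and with GC and length corrected 39 were lower (median -0.65). Their median transcript has 856 bases. Other mRNAs under 1000 bases numbered 633, of which 36 were lower and 9 higher (median -0.32), 144 and 11 GC corrected, and 28 and 18 with length corrected as well. Median centring gave 50 lower ribosomal protein genes and quantile normalization 40 lower and 1 higher. Without genes that have a recurrent ratio, 71 of 79 were lower, and 36 of them in every fit that left out 1 culture. Ribosomal protein genes have many processed pseudogenes, so reads may have been shared with near-identical copies.

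The 5′ TOP class also holds translation factors and host genes of small nucleolar RNAs. Of 51 translation factors, 2 were lower (EEF1B2 and EIF3E) and 1 higher (EIF5B), with a median of -0.04. GC corrected, 10 were lower and 3 higher, where 7.94% and 8.32% of all genes were, and with GC and length corrected 6 and 4. EEF1B2, an exchange factor for the elongation factor that brings tRNA to the ribosome, had an average of -0.62 ± 0.10 (1.54-fold lower, adjusted p = 0.0353). Its ratios were 1.12 and 1.03 at 20% and 0.964 and 0.869 at 1% oxygen in control cultures, and 0.920 and 1.02, then 0.422 and 0.439, with siOCT4, so that nearly all of its change was at 1% oxygen. EIF5B, which joins the ribosomal subunits, and EIF3E, a subunit of the eIF3 initiation complex, each had effects of opposite sign at the 2 oxygen levels, though not GC corrected, with averages of 1.09 ± 0.11 and -0.86 ± 0.15 (adjusted p = 0.0298 and 0.0356).

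Of 34 noncoding RNAs, 5 were lower (ZFAS1, SNHG5, GAS5, SNHG16 and SNHG8) and 0 higher, where 1.57% of all genes were lower, and all 5 are host genes of small nucleolar RNAs. ZFAS1 had ratios of 2.44 and 1.99 at 20% and 1.52 and 1.34 at 1% oxygen in control cultures, and of 1.14 and 1.13, then 0.589 and 0.647, with siOCT4. GAS5 had 1.90 and 1.42, then 1.10 and 1.21, in control cultures and 0.853 and 0.854, then 0.639 and 0.582, with siOCT4. In both genes all siOCT4 cultures lay below all controls. The averages were -1.08 ± 0.11 (2.12-fold lower, adjusted p = 0.0298) and -0.93 ± 0.12 (1.91-fold lower, adjusted p = 0.0302).

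SNHG5 went from 0.678 and 0.704 to 0.629 and 0.641 at 20% oxygen and from 0.784 and 0.586 to 0.206 and 0.160 at 1%, an average of -1.01 ± 0.18 (adjusted p = 0.0381). Of its change as deposited, nearly all was at 1% oxygen. Its effects GC corrected were 1.02 at 20% (adjusted p = 0.107) and -3.25 at 1%. GC corrected, 11 of 33 noncoding RNAs were lower, where 7.94% of all genes were, and 7 with length corrected as well, where 5.29% were. ZFAS1 is antisense to a protein-coding gene, and whether counting used the strand is not given in the sources used here.

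Subunits of the respiratory chain and ATP synthase encoded in the nucleus were lower as well. Of 76 measured, 13 were lower with siOCT4 and 0 higher, where 1.57% of all genes were lower, 11 of them with the same sign at both oxygen levels, and the median was -0.43 (-0.02 at 20% and -0.76 at 1%). NDUFS4, a subunit of complex I, had ratios of 4.70 and 5.20 at 20% and 1.72 and 1.53 at 1% oxygen in control cultures, and 1.50 and 1.58, then 0.963 and 1.18, with siOCT4 (average -1.15 ± 0.11, 2.21-fold lower, adjusted p = 0.0298). COX6C and COX7C, subunits of cytochrome c oxidase, had averages of -0.93 ± 0.10 and -0.89 ± 0.10 (adjusted p = 0.0298 for each).

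For COX7C the ratio went from 2.77 and 2.29 to 1.32 and 1.29 at 20% oxygen and from 1.05 and 0.965 to 0.576 and 0.550 at 1%. GC corrected, its effects were 0.48 at 20% (adjusted p = 0.10) and -2.39 at 1%. GC corrected, 36 of the 76 were lower, where 7.94% of all genes were, and with GC and length corrected 13 were lower and 1 higher, where 5.29% and 4.73% of all genes were. Quantile normalization left 1 lower and 1 higher, with a median of -0.22. These transcripts are short, with a median of 994 bases.

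Mitochondrial ribosomal proteins and the proteasome had fewer calls as deposited. Of 76 mitochondrial ribosomal proteins 4 were lower and 0 higher (median -0.20). MRPL1, one of the 4, fell from 8.56 and 8.50 to 1.34 and 1.48 at 20% oxygen and rose from 0.966 and 1.21 to 1.90 and 1.78 at 1% (average -0.91 ± 0.11, adjusted p = 0.0298). GC corrected, MRPL1 was lower at both levels, at -0.90 and -0.94. Of 47 proteasome subunits and assembly factors, 7 were lower and 0 higher (median -0.20), against 1.57% of all genes lower. GC corrected, 18 of the 76 and 17 of the 47 were lower and 0 and 2 higher, where 7.94% of all genes were lower, and with GC and length corrected 5 and 7 were lower and 1 of each higher.

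PSMA2, a subunit of the proteasome's alpha ring, had ratios of 4.08 and 3.96, then 1.27 and 1.21, in control cultures and 1.39 and 1.56, then 1.00 and 0.908, with siOCT4. Its groups were apart at each oxygen level (average -0.91 ± 0.09, adjusted p = 0.0298). POMP, a proteasome assembly factor, and PSMB1, a beta ring subunit, had averages of -0.79 ± 0.11 and -0.49 ± 0.09 (adjusted p = 0.0302 and 0.0432). Quantile normalization left 0 mitochondrial ribosomal proteins and 0 proteasome genes lower, with 1 and 2 higher.

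Among smaller sets, SNRPE, a core protein of the spliceosomal snRNPs, was lower (-0.99 ± 0.11, adjusted p = 0.0298) and HNRNPM, a regulator of splicing, higher (0.44 ± 0.09, adjusted p = 0.0455). Of 46 splicing factors 2 were called in each direction, where 4.51% of all genes were higher and 1.57% lower. GC corrected 4 were higher and 3 lower, where 8.32% and 7.94% of all genes were, and 2 and 2 with length as well. EEF1E1, a scaffold protein of the tRNA synthetase complex, was lower (-0.95 ± 0.15, adjusted p = 0.0323), and so was 1 other of 23 genes of that list (AIMP1), where GC corrected 5 were lower. Quantile normalization ended the calls of SNRPE, HNRNPM and EEF1E1, as it did those of COX6C, COX7C, MRPL1, PSMA2, POMP, PSMB1, EEF1B2 and RPS24.

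Genes of the core and primed pluripotent state had the highest median of the 26 lists. All 43 listed genes had a ratio in all 8 cultures, which shows that their RNA was detected in every culture and says nothing of its level. Of the 43, 16 were higher with siOCT4 and 1, the adhesion molecule EPCAM, lower, where 4.51% of all genes were higher. The median averaged effect was 0.60, made of -0.06 at 20% and 1.37 at 1% oxygen. The higher genes with the same sign at both levels were SALL2, MYCN, ZIC2, VRTN and DNMT3B.

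SALL2, a zinc finger transcription factor, had ratios of 0.453 and 0.563 at 20% and 0.203 and 0.206 at 1% oxygen in control cultures, and 0.788 and 0.775, then 1.04 and 1.01, with siOCT4. ZIC2, a zinc finger factor of the primed state and the early nervous system, had 0.718 and 0.750, then 0.275 and 0.252, in control cultures and 0.943 and 0.986, then 0.965 and 1.06, with siOCT4. In both genes the siOCT4 cultures lay within a narrow range above all controls, while the controls at 1% oxygen were the lowest. GC corrected, neither was called at 20% oxygen (0.21 and -0.35, adjusted p = 0.278 and 0.172). The averages were 1.48 ± 0.14 for SALL2 (2.79-fold higher, adjusted p = 0.0298) and 1.17 ± 0.11 for ZIC2 (2.25-fold higher, adjusted p = 0.0298).

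DNMT3B, a de novo DNA methyltransferase with high expression in primed stem cells, was higher with siOCT4 at both oxygen levels. Its control ratios were 0.467 and 0.496 at 20% and 0.302 and 0.289 at 1% oxygen, and its siOCT4 ratios 0.789 and 0.750, then 0.633 and 0.600 (average 0.87 ± 0.13, 1.83-fold higher, adjusted p = 0.0323). VRTN had 0.396 and 0.595, then 0.384 and 0.256, in control cultures and 0.817 and 0.907, then 0.828 and 0.789, with siOCT4 (1.10 ± 0.21, 2.14-fold higher, adjusted p = 0.0432). Neither gene's cultures overlapped, and 5 of the 43 genes had all 4 siOCT4 cultures above all 4 controls, where 1.92% of all genes did. MYCN, a MYC family factor, had an average of 1.52 ± 0.26 (adjusted p = 0.0356) and a recurrent ratio, and its siOCT4 cultures at 1% oxygen were 1.61 and 0.779. GC corrected, the effect at 20% oxygen was 0.31 for DNMT3B (adjusted p = 0.164) and 0.06 for VRTN (0.813).

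OCT4's partner factors had their higher ratios with siOCT4 at 1% oxygen. SOX2 went from 0.978 and 1.30 to 1.14 and 1.12 at 20% oxygen, and from 0.939 and 0.690 to 2.63 and 2.74 at 1% (average 0.87 ± 0.15, adjusted p = 0.0362). NANOG fell from 2.31 and 2.23 to 1.32 and 1.33 at 20% and rose from 0.358 and 0.523 to 2.02 and 2.58 at 1% (0.81 ± 0.16, adjusted p = 0.0433). GC corrected, the effects of NANOG were 0.16 at 20% (adjusted p = 0.583) and 1.20 at 1%. L1TD1, which binds RNA in pluripotent cells, and APELA, a peptide hormone, showed the widest such pairs among the called genes of this list, -1.71 and 3.81 for L1TD1 and -3.15 and 5.84 for APELA.

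The averages were 1.05 ± 0.10 for L1TD1 and 1.34 ± 0.18 for APELA (adjusted p = 0.0298 and 0.0302). SOX2, NANOG, L1TD1, APELA, DNMT3B and MYCN were named after their values were seen. GC corrected, 19 of the 43 were higher and 1 lower (median 0.53), and with GC and length corrected 16 and 1 (0.52). Median centring gave 10 higher and 1 lower, and quantile normalization 14 higher and 0 lower. Without recurrent ratios, 18 of 31 were higher, 14 of them in every fit that left out 1 culture.

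**Figure D3:**
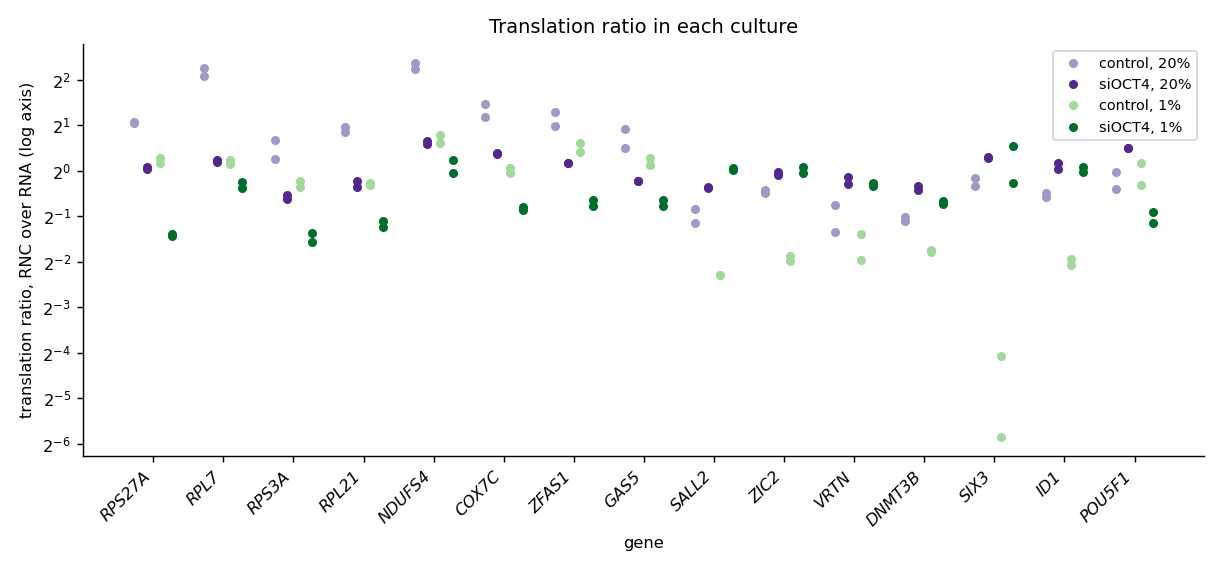
Translation ratio (log axis) of 15 genes in each of the 8 cultures, with 2 points for each of the 4 groups. In the 8 genes from RPS27A to GAS5 the siOCT4 points lie below the control points of the same oxygen level, in the 6 from SALL2 to ID1 above them, and POU5F1 is higher with siOCT4 at 20% oxygen and lower at 1%.

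The neural, mesoderm, trophectoderm and endoderm lists hold genes that mark cells leaving the pluripotent state, and most of their genes had recurrent ratios. In the neural list 5 of 21 were higher (SIX3, SIX6, POU3F1, DCX and SOX11) and 0 lower, where 4.51% of all genes were higher, with a median of 0.39. SIX6 and POU3F1 had recurrent ratios, and DCX and SOX11 were lower at 20% oxygen and higher at 1%. GC corrected, 4 were higher (median 0.28), with GC and length corrected 2 (0.07), and after quantile normalization 3 (0.01). SIX3, a homeobox factor of the forebrain and eye, had the largest called average of the genes that met the naming rule, 2.82 ± 0.43 (7.08-fold higher, adjusted p = 0.0323). Its control ratios were 0.789 and 0.895 at 20% oxygen and 0.060 and 0.0173 at 1%, and its siOCT4 ratios 1.22 and 1.23, then 1.47 and 0.837. The difference at 1% oxygen, 5.11 ± 0.61, rested on very low controls that lay far apart, and that at 20% was 0.54 ± 0.61.

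In the list of primitive streak and mesoderm genes 2 of 15 were higher (FGF8 and KDR), and in that of trophectoderm and amnion 1 of 18 (SDC1). Of all genes 4.51% were higher. KDR and SDC1 had recurrent ratios, and KDR was lower at 20% oxygen (-0.71) and higher at 1% (2.30). FGF8, a growth factor, had an average of 1.49 ± 0.29 (adjusted p = 0.0443), which GC corrected was 1.41 ± 0.41 with adjusted p = 0.0694. By limma's test no member was called among 14 endoderm genes, 14 naive pluripotency genes and 11 fibroblast genes. At an unadjusted p under 0.05 these lists had 0, 2 and 2 genes higher and 1, 0 and 1 lower. GC corrected, 1 fibroblast gene was called higher and 2 lower, 1 of them TAGLN (-0.56, adjusted p = 0.0149), and with GC and length corrected 0 and 2, while the endoderm and naive lists still had 0 calls. Members were named from genes without a recurrent ratio. They included FOXA3, an endoderm factor (-0.43 ± 0.24, adjusted p = 0.328), and STAT3, a mediator of LIF signalling (0.33 ± 0.12, adjusted p = 0.147). TAGLN, an actin-binding protein of stromal cells (-0.47 ± 0.15, adjusted p = 0.114), and KRT19 of the trophectoderm list (-0.24 ± 0.13, adjusted p = 0.311) were named as well.

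Targets of the BMP, WNT and FGF pathways were higher where they were called. Of 39 measured, 8 were higher with siOCT4 and 0 lower, where 4.51% and 1.57% of all genes were (median 0.33). GC corrected, 9 were higher and 0 lower (median 0.24), where 8.32% of all genes were higher, and with GC and length corrected 8 and 1 (0.22). ID1 and ID3, inhibitors of basic helix-loop-helix factors that BMP signalling induces, were among them. ID1 had ratios of 0.668 and 0.710 at 20% and 0.263 and 0.239 at 1% oxygen in control cultures, and 1.02 and 1.13, then 1.06 and 0.981, with siOCT4. All its siOCT4 cultures were above all controls, and the average was 1.33 ± 0.11 (2.52-fold higher, adjusted p = 0.0298).

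ID3 had 0.847 and 1.02, then 0.189 and 0.178, in control cultures and 1.25 and 1.37, then 0.718 and 0.680, with siOCT4 (1.21 ± 0.13, 2.32-fold higher, adjusted p = 0.0298). Its groups were apart at each oxygen level and overlapped across them. The other called members were ID2, FGF8, FGF19, the FGF antagonist SPRY4, the WNT target AXIN2 and cyclin D1 (CCND1). ID2 fell at 20% oxygen (-1.10 ± 0.20) and rose at 1% (2.71 ± 0.20), while GC corrected the 20% effects of ID1, ID2 and ID3 were -0.02, -0.08 and -0.13, none of them called. Median centring gave 4 higher and 0 lower in the list, and quantile normalization 6 and 0.

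Other genes with a higher average and 1 sign at both oxygen levels were not in these lists. MAP1A, a microtubule-associated protein of neurons, had an average of 1.63 ± 0.30 (adjusted p = 0.0409), with control ratios of 0.279 and 0.408, then 0.276 and 0.133, and siOCT4 ratios of 0.598 and 0.482, then 1.04 and 1.29. PRR11, a protein linked to cell cycle progression, had 1.11 and 0.907, then 0.595 and 0.704, in control cultures and 1.25 and 1.24, then 2.67 and 2.75, with siOCT4 (1.19 ± 0.11, adjusted p = 0.0298). GC corrected, the effects of PRR11 were 1.14 at 20% and 0.96 at 1% oxygen. For both genes, all siOCT4 cultures were above all controls.

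TRIM3, a ubiquitin ligase, and NYNRIN had nearly equal effects at 20% and 1% oxygen, 1.11 and 1.02 for TRIM3 and 1.00 and 1.08 for NYNRIN. TRIM3 went from 0.338 and 0.439 to 0.758 and 0.906 at 20% oxygen and from 0.505 and 0.410 to 1.09 and 0.782 at 1% (average 1.06 ± 0.19, adjusted p = 0.0376). NYNRIN went from 0.268 and 0.341 to 0.612 and 0.602, and from 0.202 and 0.247 to 0.438 and 0.513 (1.04 ± 0.20, adjusted p = 0.0432). Neither gene's siOCT4 values overlapped its controls. GC corrected, the effects were unequal, 0.25 at 20% (adjusted p = 0.372) and 1.72 at 1% for TRIM3, and 0.29 (0.420) and 1.62 for NYNRIN, with a difference that was called for both (adjusted p = 0.00626 and 0.0204).

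DYNC1H1, the heavy chain of cytoplasmic dynein, had nearly equal effects on both scales, 1.16 and 1.03 as deposited and 0.96 and 0.95 GC corrected, on ratios of 0.0936 and 0.0969 against 0.226 and 0.200 at 20% and of 0.398 and 0.457 against 0.878 and 0.870 at 1%. Its average was 1.10 ± 0.22 (adjusted p = 0.0453), which was 0.55 with adjusted p = 0.0748 once GC content and transcript length were corrected for. MEX3A, an RNA-binding protein (1.09 ± 0.22, adjusted p = 0.0480), and PNMA3 (1.07 ± 0.19, adjusted p = 0.0386) completed the 10 largest. Median centring ended the calls of MAP1A, VRTN, DYNC1H1, MEX3A, PNMA3, NYNRIN and FGF8, with adjusted p between 0.0510 and 0.0625, and quantile normalization ended these and that of TRIM3. Median centring also ended the calls of HSPA1A, VCAN and HNRNPM, with adjusted p of 0.0620, 0.0594 and 0.108.

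**Figure D4:**
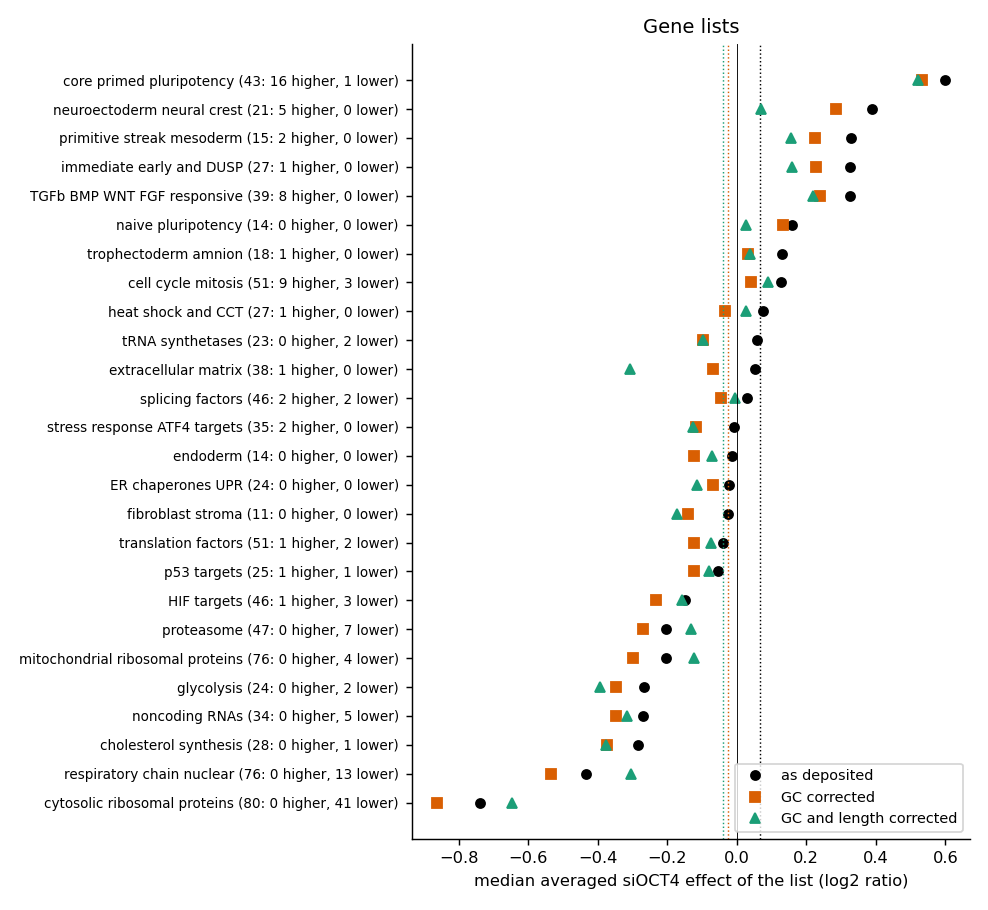
Median averaged siOCT4 effect (log2 ratio) of each of the 26 lists as deposited, GC corrected, and GC and length corrected, with the measured members and the calls as deposited in the labels and dotted lines at the medians of all genes. Cytosolic ribosomal proteins lie lowest on all 3 scales, at -0.74, -0.86 and -0.65, and the core pluripotency list highest, at 0.60, 0.53 and 0.52.

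In the stress genes an average near 0 joined large effects of opposite sign. The 35 stress response and ATF4 target genes, many of which cells raise when eIF2 is phosphorylated, had a median averaged effect of -0.01, with medians of 1.25 at 20% and -1.32 at 1% oxygen. At 20% oxygen 23 were higher and 7 lower, and at 1% oxygen 6 were higher and 25 lower, where 19.2% and 41.1% of all genes were higher and 34.1% and 19.9% lower. For 32 of the 35 the effects at the 2 levels differed by the interaction test, as they did for 68.7% of all genes. In the average, GDF15 and DDIT3 were higher and 0 genes lower, GC corrected 2 were higher and 5 lower, and with GC and length corrected 2 and 7.

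GDF15, a stress-induced cytokine, had control ratios of 0.0146 and 0.0210 at 20% and 3.36 and 2.54 at 1% oxygen, and siOCT4 ratios of 0.884 and 1.04, then 0.510 and 0.455. The siOCT4 cultures lay between the 2 pairs of controls. The average of 1.59 ± 0.22 (adjusted p = 0.0302) joined 5.78 ± 0.31 at 20% with -2.60 ± 0.31 at 1% oxygen. DDIT3, the transcription factor CHOP, behaved alike, with 2.56 ± 0.15 and -1.30 ± 0.15 (average 0.63 ± 0.11, adjusted p = 0.0361).

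JUN, an immediate early transcription factor, had control ratios of 0.0888 and 0.108 at 20% and 3.58 and 2.78 at 1% oxygen, and siOCT4 ratios of 0.831 and 0.981, then 1.45 and 1.38. It was the 1 called gene of 27 in the immediate early list, where 5 were called higher GC corrected and with length as well (average 1.02 ± 0.14, adjusted p = 0.0302). BHLHE40, a hypoxia-induced repressor, went from 0.167 and 0.148 to 0.918 and 0.953 at 20% oxygen and from 3.06 and 3.29 to 1.92 and 1.84 at 1% (0.91 ± 0.09, adjusted p = 0.0298). It was the 1 higher gene of 46 HIF targets, of which 3 were lower, 6 GC corrected and 7 with length as well.

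HSPA1A, an inducible HSP70 that is nearly identical to HSPA1B and may share its reads, had 0.125 and 0.152, then 2.21 and 1.89, in control cultures and 0.658 and 0.659, then 1.18 and 1.05, with siOCT4. It was the 1 called gene of 27 heat shock and chaperonin genes, where GC corrected 2 were higher and 2 lower (0.69 ± 0.13, adjusted p = 0.0426). In GDF15, DDIT3, JUN, BHLHE40 and HSPA1A alike, the controls spanned both extremes and the siOCT4 cultures lay inside them. Quantile normalization ended the calls of GDF15, BHLHE40, JUN and HSPA1A and turned HSPA1A to -0.27. Of 24 genes of the unfolded protein response limma called none (0 higher and 5 lower at an unadjusted p under 0.05), and its named member, the transcription factor XBP1, had -0.33 ± 0.09 (adjusted p = 0.0792). GC corrected, 5 of the 24 were lower, XBP1 among them (-0.49, adjusted p = 0.0206), and 4 with length corrected as well.

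**Figure D5:**
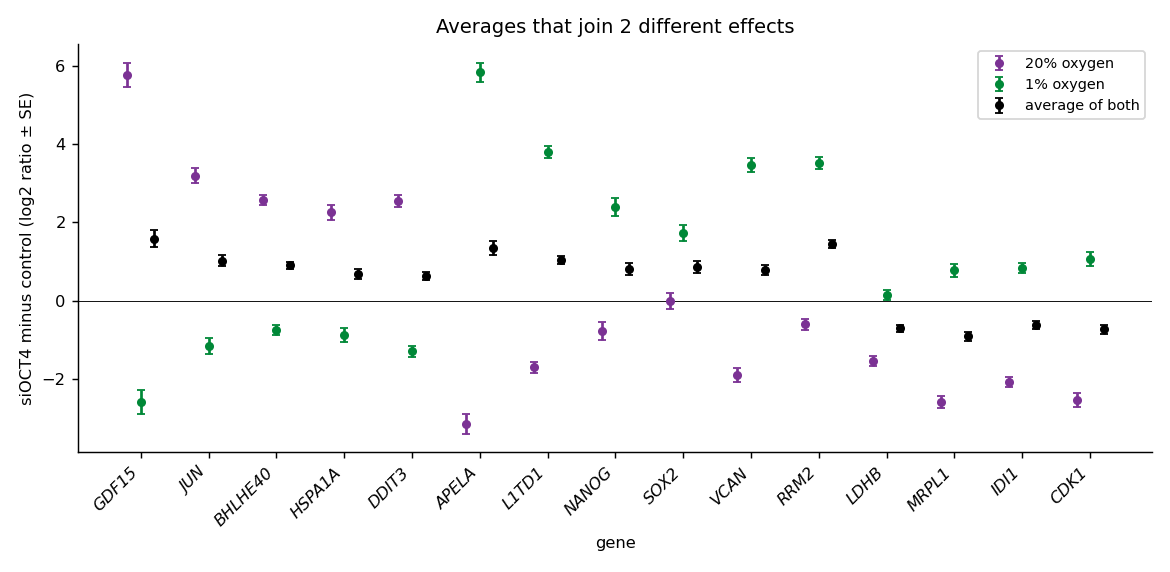
siOCT4 minus control difference in log2 ratio (± SE) at 20% oxygen, at 1% oxygen and averaged, for 15 genes called in the average whose effects at the 2 oxygen levels differed, as deposited. For 13 of them the 2 effects lie on opposite sides of 0, as for GDF15 at 5.78 and -2.60, while for SOX2 and LDHB 1 of the effects is close to 0.

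The glycolysis and cholesterol lists had lower medians, with more members called lower GC corrected than as deposited. As deposited, 1.57% of all genes were lower. Of 24 glycolysis genes 2 were lower (LDHB and PGK1) and 0 higher, with a median of -0.27 made of 0.92 at 20% and -1.42 at 1% oxygen, and GC corrected 13 were lower, or 11 with length as well, where 7.94% and 5.29% of all genes were. LDHB, a lactate dehydrogenase subunit, fell from 3.30 and 3.24 to 1.12 and 1.12 at 20% oxygen and went from 1.19 and 1.10 to 1.20 and 1.32 at 1% (average -0.70 ± 0.09, adjusted p = 0.0298). PGK1, phosphoglycerate kinase, went from 0.417 and 0.373 to 0.821 and 0.838 at 20% and from 2.21 and 1.98 to 0.465 and 0.461 at 1% (-0.55 ± 0.10, adjusted p = 0.0426). GC corrected, LDHB was lower at both levels, at -0.91 and -0.79, and PGK1 was 2.23 at 20% and -3.54 at 1%.

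Of 28 cholesterol synthesis genes 1 was lower, IDI1, an isomerase of the isoprenoid pathway (-0.62 ± 0.10, adjusted p = 0.0328). GC corrected 12 were lower (median -0.37), or 11 with length as well, where 7.94% and 5.29% of all genes were. Of 38 extracellular matrix genes 1 was higher, the proteoglycan VCAN (0.79 ± 0.13, adjusted p = 0.0356), on effects of -1.91 at 20% and 3.48 at 1% oxygen. GC corrected, 2 matrix genes were higher and 4 lower (median -0.07), and with GC and length corrected 1 and 9 (-0.31). Quantile normalization ended the calls of IDI1 and VCAN. Of 25 p53 targets, GDF15 was higher and CCNG1, cyclin G1, lower (-0.72).

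Cell cycle genes were called in both directions, 9 higher and 3 lower of 51, where 4.51% and 1.57% of all genes were. GC corrected, 9 were higher and 7 lower, and with GC and length corrected 7 and 6. The higher ones included RRM2, a subunit of ribonucleotide reductase (1.46 ± 0.10, adjusted p = 0.0298), the proliferation antigen MKI67 (1.00 ± 0.17, adjusted p = 0.0373) and the kinetochore motor CENPE (1.10 ± 0.16, adjusted p = 0.0308). The lower ones were the kinase CDK1 (-0.74 ± 0.12, adjusted p = 0.0356), the checkpoint protein MAD2L1 (-0.53) and CKS1B, a small cyclin-dependent kinase subunit (-0.46 ± 0.09, adjusted p = 0.0442). CKS1B was the 1 called gene of this list with the same sign at both oxygen levels, with ratios of 1.95 and 1.78, then 1.49 and 1.37, in control cultures and 1.49 and 1.57, then 0.920 and 0.926, with siOCT4. GC corrected, CKS1B had opposite signs, 0.64 at 20% (adjusted p = 0.0309) and -1.81 at 1%, and 10 other called genes of the list, 6 higher and 4 lower, had 1 sign at both levels. Quantile normalization ended its call (adjusted p = 0.297). RRM2, MKI67, CENPE and CDK1 were chosen after their values were seen.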

How the data were processed

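The authors deposited, for each gene and culture, a translation ratio (unit ratio, the RNC value over the RNA value). The submitters' processing notes name edgeR and hg19, a genome build, without a role, and the mapper, annotation and filters behind the ratio are not stated there. The table gives no counts, so the depth behind a ratio is unknown, and so are intervals for counting error. Columns marked "sO" were read as siOCT4 cultures and matched to labels by name.

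Log2 ratios entered limma 3.58.1 (in R 4.3.3, with statmod 1.5.0, trend and robust settings) as 4 group means of 2 cultures each, without a pseudocount, with 4 residual degrees of freedom. The averaged effect was the mean of the siOCT4 contrasts at 20% and 1% oxygen. P-values are two-sided and were adjusted across the 15864 genes by the Benjamini-Hochberg method. A simulated data set served to test the fit. GC content and length came from GENCODE release 29, on another build, used for no coordinates and matched by symbol for 15261 tested genes (96.2%). GC correction took residuals from a natural spline (6 degrees of freedom) of each culture's log2 ratios on GC content, and a further correction added a spline on log2 length. A ratio was called recurrent where at least 3 genes of a culture shared it within a relative tolerance of 2e-06. Promoter sequences came from RefSeq (GRCh38.p14), and genes with several windows were left out of the shares.

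The comparison, the lists and the rules were chosen with earlier results of these data known. Genes were named by rule, beginning with POU5F1. Genes qualified if called as deposited and GC corrected, with 1 sign at both oxygen levels, cultures apart at each level and no recurrent ratio. Of these 69 higher and 28 lower genes, the 10 per direction with the largest average were named. Each list gave up to 3 called members with 1 sign at both levels, or, where none was, its member with the largest average. Genes with a recurrent ratio were left out of these list picks too. All other genes were chosen after their values were seen, whether or not this is said beside them. Alternatives were median centring, quantile normalization, GC and length corrections, an additive fit, the replicate number as a block, neither trend nor robust settings, pseudocounts of 0.01 and 0.1, genes with missing ratios, leaving out genes with a recurrent ratio and leaving out each culture. The combinations of leaving out recurrent ratios with GC correction, the block or a left-out culture were chosen after the data were seen. Summaries and figures used matplotlib 3.10.9, scipy 1.17.1, pandas 2.3.3 and numpy 2.4.6 on Python 3.11.15.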

Additional observations from a re-analysis of the deposited data

Results flagged for a closer look

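For 34 of the 51 named genes the siOCT4 effect differed between the oxygen levels in limma's interaction test (adjusted p under 0.05), which was so for 68.7% of all genes tested. The values below are the effect at 1% oxygen minus that at 20% oxygen, in log2 units, with 2 cultures per group. Many depended on GC content: GC corrected, 21 of the 34 were called with the same sign, 6 with the opposite sign and 7 were not called, while 15 of the other named genes were called (43.4% of all genes were).

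Among the genes with a higher average, the difference was 4.57 for SIX3 (adjusted p = 0.00441), 1.93 for MAP1A, 1.70 for SALL2, 1.76 for PRR11, 1.55 for ZIC2, 1.91 for FGF8, 5.38 for VCAN (adjusted p = 8.04e-05), 1.39 for ID1, 1.43 for ID3 and 0.68 for HNRNPM. In these 10 genes the effect at 1% oxygen was the more positive one, and VCAN was lower with siOCT4 at 20%. GC corrected, PRR11's difference was -0.18 (adjusted p = 0.392), and the other 9 were called with the same sign. The difference ran the other way for 4 genes whose controls at 20% oxygen were very low, at -8.38 for GDF15 (adjusted p = 8.04e-05), -4.36 for JUN, -3.33 for BHLHE40 and -3.14 for HSPA1A, and these were called with the same sign GC corrected.

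Among the genes with a lower average, the effect was more negative at 1% oxygen for RPS27A (-0.64), RPL31 (-1.32), RPL39 (-1.97), EEF1B2 (-0.94) and SNHG5 (-1.78), also GC corrected. As deposited it was more negative at 20% oxygen for RPL7 (1.44), RPS24 (0.91), NDUFS4 (1.08), MRPL1 (3.37, adjusted p = 9.04e-05), LDHB (1.68), IDI1 (2.92), PSMA2 (1.07), POMP (1.10), EEF1E1 (1.82) and SNRPE (1.04), of which MRPL1, LDHB and IDI1 had positive effects at 1%. GC corrected, none of these 10 was called in that direction. The difference turned to -1.14 for RPL7, -1.60 for NDUFS4, -2.22 for PSMA2, -2.61 for POMP, -1.80 for EEF1E1 and -2.38 for SNRPE, all called, and was -0.28 for RPS24, -0.04 for MRPL1, 0.12 for LDHB and -0.16 for IDI1, with adjusted p of 0.475, 0.884, 0.599 and 0.440.

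In genes without a call in the average the difference was -1.68 for POU5F1 (adjusted p = 0.0042), -2.55 for KRT19, -1.64 for FOXA3, -3.46 for TAGLN and -1.98 for XBP1. All 5 had a higher ratio with siOCT4 at 20% oxygen and a lower one at 1%. GC corrected, the difference was -0.52 for POU5F1 (adjusted p = 0.0866) and -0.06 for FOXA3 (adjusted p = 0.884), and KRT19, TAGLN and XBP1 were called with the same sign.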

How the results depend on the processing

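As deposited, 716 genes were higher and 249 lower, 388 of them with 1 sign at both oxygen levels. Median centring gave 278 and 427, and quantile normalization 478 and 317. GC correction gave 1269 and 1212 (1320 with 1 sign), and GC and length correction 722 and 808 (807 with 1 sign). Genes with missing ratios added gave 418 and 159 (255 with 1 sign). Without recurrent ratios there were 1286 and 595 (640 with 1 sign), and 1366 and 1708 (1483 with 1 sign) when GC corrected too. An additive fit, whose residuals hold the interaction, called 0 higher and 0 lower (556 and 144 at an unadjusted p under 0.05). The replicate number as a block called 0 and 0, hence 0 with 1 sign (2423 and 1110 unadjusted); with GC correction the block called 538 and 421, and without recurrent ratios 946 and 407. Across genes, deviations of same-numbered cultures from their group means correlated at -0.233 to 0.0225 between groups. With 2 cultures per group, these values cannot tell whether same-numbered cultures were handled together. Leaving out each culture gave 0 to 666 higher, 0 to 288 lower and 0 to 511 with 1 sign as deposited. GC corrected this was 0 to 990, 0 to 1118 and 0 to 1313, with 0 calls when siOCT4 replicate 1 at 1% oxygen or either siOCT4 culture at 20% was left out (1880 to 2092 higher and 1931 to 2170 lower unadjusted). Without recurrent ratios it was 521 to 1664, 205 to 856 and 249 to 887. Of the single genes, HSPA1A turned to -0.27 under quantile normalization, and no other called named gene turned under any alternative run. The 51 named genes, nearly all chosen from these same data, kept their direction when each culture was left out. Groups of 2 cultures and unknown read numbers limit the precision, and neither a minimum level nor a match on RNA level could be applied. No cause of these changes was tested.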

Other observations

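The averaged effect was also lower for CA9, a carbonic anhydrase that hypoxia induces, at -1.93, the lowest value among the 46 HIF targets, though it was not called and had a recurrent ratio. Of the 3 HIF targets called lower, HIGD1A (-0.75) and BNIP3 (-0.60) act at mitochondria, and FAM162A (-0.79) had a recurrent ratio. The growth factor GDF3, a TGF-beta family member of pluripotent cells, had the highest average of the pluripotency list, 1.84, without a call and with a recurrent ratio. RN7SK, a nuclear noncoding RNA that restrains transcription elongation, had the lowest average of the noncoding list (-1.62), again without a call and with a recurrent ratio.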
